A study of Homo sapiens with 36 samples.

Results

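The mitochondrially encoded subunits of respiratory complex I were examined across 2 human cell lines exposed to a herbal extract, to wortmannin or to vehicle. The members are MT-ND1, MT-ND2, MT-ND3, MT-ND4L, MT-ND4, MT-ND5 and MT-ND6, chosen by name and not by their values, and they make up 7 of the 60675 genes in the count table. RNA sequencing covered 36 libraries in 12 groups of 3 replicates, all collected after 24 h. SW1783 derives from an astrocytoma and HT29 from a colorectal adenocarcinoma, and each stands for 1 established line only. Per the methods, SW1783 was kept in Leibovitz's medium without carbon dioxide and HT29 in DMEM with it, at different plating densities. Line and culture conditions therefore cannot be told apart in comparisons between the lines, interactions included. In batch B, each line received the hot water extract of the root of *Aconitum carmichaeli* Debeaux (ACD) at 500, 100 or 20 µg/mL (high, medium and low dose) or vehicle. In batch A, each line received 10 µM wortmannin, an inhibitor of phosphoinositide 3-kinase, or vehicle. The labels give the vehicle of both batches as 0.1% DMSO. The comparisons ask how strongly the treatments moved these transcripts in cells of brain and of intestinal origin.

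Complex I, or NADH:ubiquinone oxidoreductase, takes electrons from NADH and passes them to ubiquinone while it pumps protons across the inner mitochondrial membrane. The subunits encoded in mitochondrial DNA form the core of its membrane arm, and all the other subunits are made from nuclear genes. MT-ND1 lies next to the site where ubiquinone binds, MT-ND2, MT-ND4 and MT-ND5 resemble antiporters and carry proton channels, and MT-ND3, MT-ND4L and MT-ND6 are small connecting subunits. Mitochondrial genes are transcribed into long precursors from which tRNAs are cut out to release the mRNAs. MT-ND6 is the member encoded on the opposite strand, and its mRNA is known to lack the usual poly(A) tail.

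The neighbourhoods of the members matter for reading their counts. Coordinates are those of hg38 with the GENCODE v44 annotation. MT-ND4L (chrM:10470-10766) and MT-ND4 (chrM:10760-12137) share 7 bases and are known to be carried on a common mRNA. MT-ND5 (chrM:12337-14148) and MT-ND6 (chrM:14149-14673, opposite strand) abut without a gap and point towards each other. Both junctions are shown on the strand of MT-ND4. In the first, capitals mark the bases that belong to both genes, with the start codon of MT-ND4 at their left end. In the second, capitals mark the last 3 bases of MT-ND5 followed by the complement of the last 3 bases of MT-ND6.
MT-ND4L and MT-ND4, chrM:10730-10796: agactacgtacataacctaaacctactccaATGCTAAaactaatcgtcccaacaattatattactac
MT-ND5 and MT-ND6, chrM:14119-14178: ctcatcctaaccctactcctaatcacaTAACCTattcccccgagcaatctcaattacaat

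The other members are MT-ND1 (chrM:3307-4262), MT-ND2 (chrM:4470-5511) and MT-ND3 (chrM:10059-10404). Their starts show codons that initiate translation in mitochondria and not in the nuclear code, marked in capitals and read on the strand of the gene, with the start of MT-ND6 for comparison.
MT-ND1 start, chrM:3307-3336: ATAcccatggccaacctcctactcctcatt
MT-ND2 start, chrM:4470-4499: ATTaatcccctggcccaacccgtcatctac
MT-ND3 start, chrM:10059-10088: ATAaacttcgccttaattttaataatcaac
MT-ND6 start, chrM:14644-14673, opposite strand: ATGatgtatgctttgtttctgttgagtgtg
The sense strand of MT-ND6 contained 35.6% G and 7.05% C, whereas that of MT-ND1 contained 11.7% G and 36% C.

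Library totals ranged from 18863852 to 26436841 counts in SW1783 and from 15941250 to 33866636 in HT29. VIM, COL1A2 and CD44 were abundant in SW1783, but CD44 was also at a median of 527.3 CPM in HT29. The astrocyte markers GFAP and S100B were at most at 0.261 and 0.253 CPM in SW1783. SOX9, from the same marker list, had a lower median in SW1783 (69.1 CPM) than in HT29 (139.6 CPM). The astrocytic identity of SW1783 was therefore not visible in these genes. EPCAM and KRT20 were at medians of 534.0 and 252.5 CPM in HT29. From the same list, CDH1 and VIL1 were at 450.9 and 177.6 CPM, but CDX2 and CDH17 only at 6.01 and 5.56 CPM. Same-numbered vehicle libraries of the 2 batches lay closer to each other (chi-square per degree of freedom 1.46 to 1.64) than libraries of the same group (1.68 to 71.5), the upper end coming from replicate 2 of the high dose in HT29. The labels do not say that replicates were separate cultures, so p-values measure the spread between these libraries, which may be technical. All members were abundant, and all 7 were tested in every comparison. Where groups are said not to overlap, this describes the libraries only. The share of all genes with such separation was not computed.

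In the vehicle of batch B the members accounted for 1.51% ± 0.062 of all counts in SW1783 and for 2.52% ± 0.23 in HT29 (SD, n = 3). Per kb of gene, MT-ND4 stood highest in SW1783 with 82197 ± 4136 normalized counts. MT-ND1 (53840 ± 5363), MT-ND3 (52723 ± 5458), MT-ND2 (52334 ± 2720) and MT-ND4L (52204 ± 2699) followed and did not differ beyond their spread. MT-ND5 was lower at 26781 ± 889.9 per kb, and MT-ND6 was lowest at 9553 ± 638.2. In HT29, MT-ND4 (180195 ± 18592 per kb) and MT-ND3 (149306 ± 24277) overlapped at the top. MT-ND1 (97501 ± 19416), MT-ND2 (88855 ± 8379) and MT-ND4L (76455 ± 11618) overlapped below them, followed by MT-ND5 (42149 ± 2378) and MT-ND6 (21141 ± 9014). The order of the lowest members was shared, while MT-ND3 held a higher rank in HT29. These values divide counts by the annotated gene length. MT-ND4L stood below MT-ND4 in both lines although they share an mRNA, so the order between genes may not be that of their transcripts.

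When the vehicles of batch B were compared directly, all 7 members were higher in HT29 than in SW1783, against 32.6% of all tested genes. All 6 other mitochondrial mRNAs were higher as well, with a median log2 difference of 1.31 against 0.61 over the members. Both mitochondrial rRNAs also passed higher. The log2 difference was 1.26 ± 0.12 (SE) for MT-ND3, 0.90 ± 0.36 for MT-ND6, 0.89 ± 0.08 for MT-ND4 and 0.61 ± 0.13 for MT-ND1, and these 4 members exceeded 1.5-fold, against 25.6% of all tested genes (DESeq2 adjusted p = 2.93e-26, 0.0184, 8.61e-27 and 6.64e-06). The smallest difference was that of MT-ND4L with 0.31 ± 0.10 (adjusted p = 0.00457), which did not pass without SW1783 vehicle replicate 3 (adjusted p = 0.0527). MT-ND6 rested on a wide spread in HT29, where the vehicle libraries were at 16493, 9160 and 7645 normalized counts. Leaving out any of the 3 SW1783 vehicle libraries left MT-ND6 short of the threshold (adjusted p = 0.0699, 0.0768 and 0.104). The number of members over 1.5-fold was 2 to 5 when a library was left out, and 2 without HT29 vehicle replicate 1 or SW1783 vehicle replicate 1 or 2.

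In SW1783, the low dose of ACD moved the members in opposite directions. MT-ND1 and MT-ND2, nearest to the start of the transcripts, rose, whereas MT-ND4, MT-ND4L and MT-ND5 fell. A gene was called differentially expressed (DEG) at a DESeq2 adjusted p under 0.05 and a change over 1.5-fold. Only 11 of 9304 tested genes, 0.118%, were DEGs at this dose, and 2 of them were MT-ND1 and MT-ND2, while 0.0967% of genes were DEGs that rose. With the adjusted p alone 5 members passed, 2 higher and 3 lower, against 2.05% higher and 1.24% lower, together 3.29%, of all tested genes.

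MT-ND1 was at 50326, 47013 and 57074 normalized counts in the vehicle libraries of SW1783 and at 106804, 72133 and 81653 after the low dose. All treated libraries were above all vehicle libraries, with replicate 1 the highest. MT-ND1 rose by 0.75 ± 0.14 on the log2 scale (adjusted p = 6.52e-06). MT-ND2 followed the same pattern, from 54766, 51588 and 57242 to 110040, 71678 and 84675, and rose by 0.70 ± 0.14 (adjusted p = 6.09e-05). Without replicate 1 of the low dose, both stayed past the adjusted p but were at 0.58 and 0.52 on the log2 scale, under the fold threshold, and no member was a DEG.

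MT-ND4, the member with the highest counts in the vehicle, went the other way. Its vehicle libraries were at 110082, 109872 and 119848 normalized counts and its low-dose libraries at 96801, 73642 and 85375, all lower than the vehicle. MT-ND4 fell by 0.41 on the log2 scale (SE 0.09, adjusted p = 0.000647). MT-ND4L, which shares its mRNA, fell by 0.49 (SE 0.07, adjusted p = 2.16e-10), and MT-ND5 fell by 0.32 (SE 0.05, adjusted p = 1.54e-06). MT-ND3 (0.16 ± 0.12) and MT-ND6 (0.05 ± 0.05) did not pass the test and overlapped with the vehicle.

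At the medium dose in SW1783, the levels of MT-ND1 and MT-ND2 lay near those of the vehicle and the fall of the later genes was larger. MT-ND3, MT-ND4L, MT-ND4 and MT-ND5 passed the test, all lower, against 14.5% of all tested genes, and 2 of them, MT-ND4 and MT-ND4L, were DEGs, against 1.48%. MT-ND4 was at 67347, 63890 and 69230 normalized counts and MT-ND4L at 9573, 8987 and 8585, against 15183, 16417 and 14914 for MT-ND4L in the vehicle. No treated library of either gene reached a vehicle library. They fell by 0.76 (SE 0.09) and by 0.78 (SE 0.07), with adjusted p = 1.96e-15 and 2.3e-28. MT-ND3 fell by 0.50 (SE 0.12, adjusted p = 0.000333) and MT-ND5 fell by 0.42 (SE 0.05, adjusted p = 8.82e-13). MT-ND1 was at 0.15 ± 0.14, MT-ND2 at 0.01 ± 0.14 and MT-ND6 at 0.06 ± 0.05, none past the test.

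At the high dose in SW1783, MT-ND4L, MT-ND4 and MT-ND5 fell and the other members did not pass the test. Of all tested genes 22.6% passed lower. No member was a DEG, against 18.2% of all tested genes. MT-ND5, from 50341, 47982 and 47257 in the vehicle, was at 37226, 36018 and 33458 normalized counts, with no overlap. MT-ND5 fell by 0.45 (SE 0.05, adjusted p = 2.24e-15), MT-ND4L by 0.38 (SE 0.07) and MT-ND4 by 0.33 (SE 0.09). MT-ND1 (0.07 ± 0.14), MT-ND2 (0.08 ± 0.14), MT-ND3 (-0.06 ± 0.12) and MT-ND6 (0.02 ± 0.05) did not pass the test. With size factors from total counts MT-ND1, MT-ND2 and MT-ND6 were below 0 at this dose, again without passing.

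**Figure D1:**
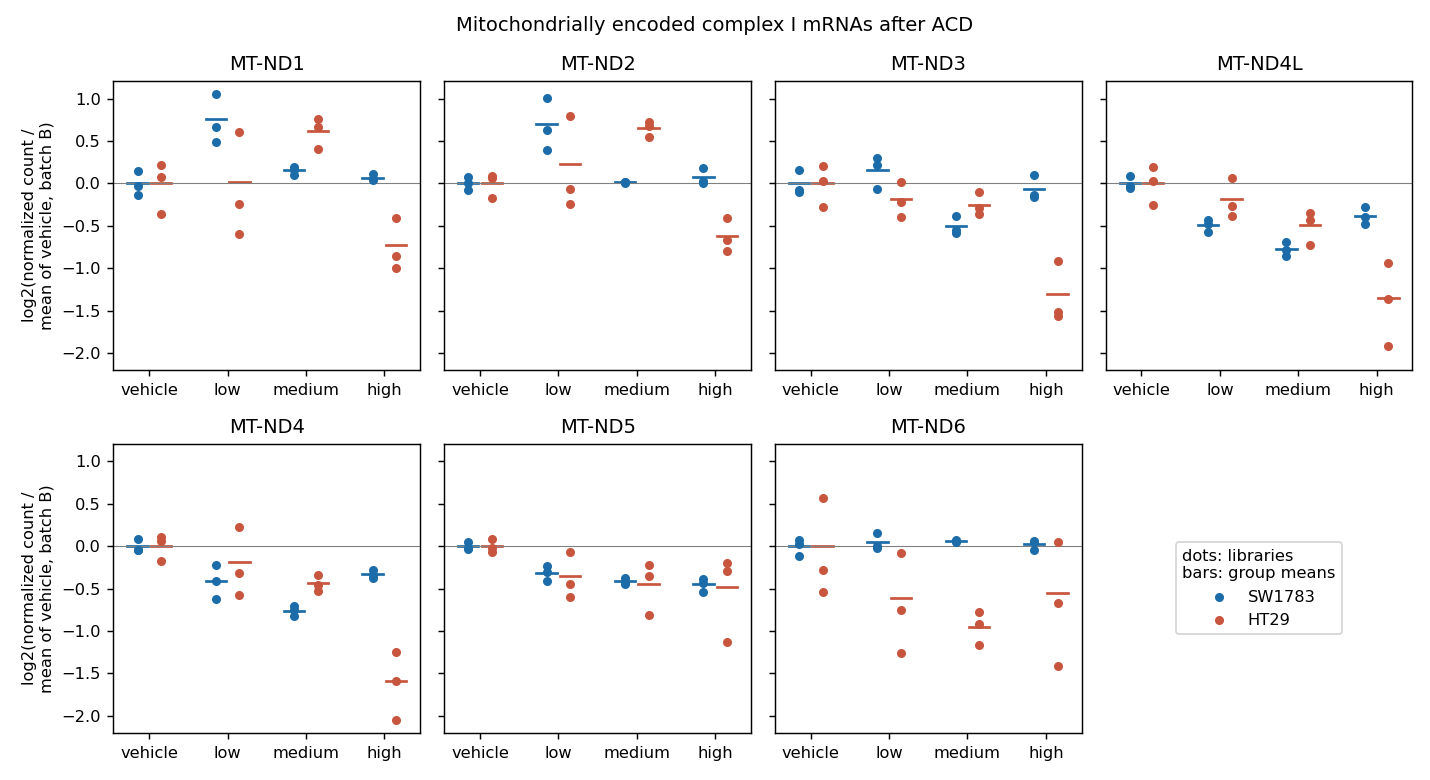
Level of each complex I mRNA in every batch B library, as log2 of the normalized count over the mean of the vehicle of the same line; dots are libraries and bars are group means (blue SW1783, red HT29). MT-ND1 and MT-ND2 stand above the vehicle at the low dose in SW1783 and at the medium dose in HT29, and MT-ND3, MT-ND4L and MT-ND4 are lowest at the high dose in HT29, where the mean of MT-ND4 is at -1.59.

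The doses of SW1783 were also compared with each other. From the low to the medium dose, MT-ND1, MT-ND2 and MT-ND3 fell by 0.60 (SE 0.14), 0.69 (SE 0.14) and 0.66 (SE 0.12) and were DEGs, against 0.589% of all tested genes. Without replicate 1 of the low dose a single member remained a DEG in this comparison. From the medium to the high dose, MT-ND3, MT-ND4 and MT-ND4L rose by 0.44 ± 0.12, 0.43 ± 0.09 and 0.39 ± 0.07 without reaching 1.5-fold, while 21.1% of all tested genes passed higher and 10.2% were DEGs. MT-ND4 was lowest at the medium dose, and MT-ND1 was highest at the low dose. MT-ND6 passed in neither step.

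In HT29 the high dose gave the largest falls of any member among the 8 comparisons of a treatment with its vehicle. MT-ND4, MT-ND4L and MT-ND3 were DEGs, all lower, against 1.63% of all tested genes. Of the 6 other mitochondrial mRNAs, 5 were DEGs, all lower. Their median log2 change was -1.26, against -0.73 over the members, so the fall was not particular to complex I. MT-ND4 was at 266500, 219009 and 259418 normalized counts in the vehicle and at 104248, 82333 and 60010 after the high dose, without overlap. MT-ND4 fell by 1.59 on the log2 scale (SE 0.21, adjusted p = 1.55e-11). MT-ND4L, at 19076, 23102 and 25943 in the vehicle and at 8818, 11825 and 6026 after the high dose, fell by 1.35 (SE 0.22, adjusted p = 5.6e-08). MT-ND3 changed from 59426, 42745 and 52808 to 27303, 18074 and 17480 and fell by 1.30 (SE 0.18, adjusted p = 2.41e-10).

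The other members of HT29 at the high dose had lower means that did not pass the test. MT-ND1 was at -0.73 ± 0.27 (adjusted p = 0.075) and MT-ND2 at -0.62 ± 0.22 (adjusted p = 0.0642), and neither group overlapped with its vehicle. MT-ND5 was at -0.48 ± 0.23 without overlap, and its replicate 3, with 34922 normalized counts, lay far below replicates 1 and 2 with 62447 and 66562. MT-ND6 was at -0.56 ± 0.46, with a range of 4155 to 11476 that overlapped with the vehicle. The number of DEGs went from 3 to 5, with MT-ND1 and MT-ND2 added, when the high dose and vehicle were fitted alone, and to 6 with total-count size factors. The share of all genes called under these settings was not computed. Leaving out a library gave 3 or 4. High-dose replicate 2 stood apart from replicates 1 and 3 over all genes, and without it MT-ND4 fell by 1.60, MT-ND4L by 1.61 and MT-ND3 by 1.21 on the log2 scale, all past the test.

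At the medium dose in HT29 no member passed the test, while 2.09% of all tested genes did. MT-ND1 was at 148173, 157958 and 123066 normalized counts against 108777, 72669 and 98187 in the vehicle, and MT-ND2 at 153247, 147861 and 135594 against 98106, 82521 and 97135. Neither pair of groups overlapped. The differences were 0.62 ± 0.27 (adjusted p = 0.32) and 0.65 ± 0.22 (adjusted p = 0.112) in the fit of all batch B libraries. With the 2 groups fitted alone both were DEGs, at adjusted p = 0.0364 and 6.07e-15. The share of all genes called in that smaller fit was not computed. MT-ND4 (-0.44 ± 0.21), MT-ND4L (-0.49 ± 0.22), MT-ND5 (-0.44 ± 0.23) and MT-ND6 (-0.95 ± 0.46, adjusted p = 0.416) did not pass in the fit of all batch B libraries. All their treated libraries lay below the vehicle, a separation whose share over all genes was not computed. With the 2 groups fitted alone MT-ND4 and MT-ND4L passed, lower (adjusted p = 6.83e-06 and 0.00054).

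At the low dose in HT29 no member passed either, against 0.649% of all tested genes, and all 7 overlapped with the vehicle. Replicate 1 stood apart, with MT-ND1 at 141718 normalized counts against 78546 and 61542 in replicates 2 and 3, and MT-ND2 at 160114 against 88451 and 78350. From the medium to the high dose in HT29, MT-ND1, MT-ND2, MT-ND3, MT-ND4 and MT-ND4L were DEGs and fell by 1.35 (SE 0.27), 1.27 (SE 0.22), 1.05 (SE 0.18), 1.15 (SE 0.21) and 0.86 (SE 0.22), against 0.312% of all tested genes. MT-ND4L did not pass in that step by edgeR (adjusted p = 0.119) or without medium-dose replicate 1 or 2 (adjusted p = 0.124 and 0.133), and MT-ND5 was at -0.04 ± 0.23. From the low to the medium dose none passed, against 0.459% of all tested genes, and 2 members were DEGs without low-dose replicate 1.

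The difference between the lines was tested as an interaction, that is, the log2 change in SW1783 minus that in HT29. At the high dose it was 1.22 ± 0.24 for MT-ND4, 1.20 ± 0.22 for MT-ND3 and 0.93 ± 0.24 for MT-ND4L (adjusted p = 5.02e-06, 1.26e-06 and 0.000647), so that these members fell less in SW1783. These 3 were DEGs of the interaction, against 6.86% of all tested genes in that direction. Of the 6 other mitochondrial mRNAs, 5 were DEGs of it in the same direction, with a median of 0.81 against 0.75 over the members. MT-ND1 (0.75 ± 0.32, adjusted p = 0.0595) and MT-ND2 (0.65 ± 0.27, adjusted p = 0.0515) did not pass, with MT-ND2 just under the threshold by edgeR (adjusted p = 0.0486) and with the low-count filter (adjusted p = 0.0478), nor did MT-ND6 (0.54 ± 0.46), and MT-ND5 was at -0.01 ± 0.25. Without HT29 high-dose replicate 1 or HT29 vehicle replicate 2 the interaction had 5 DEGs among the members. No member passed at the medium or low dose, against 10.4% and 0.929% of all tested genes. With total-count size factors 1 member was a DEG of the medium-dose interaction. Without HT29 low-dose replicate 1, 2 members were DEGs of the low-dose interaction.

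The proportions among the members do not depend on any scaling between libraries. In SW1783 the ratio of MT-ND1 to MT-ND4 counts was 0.454 ± 0.024 in the vehicle of batch B and 1.01 ± 0.079, 0.859 ± 0.056 and 0.600 ± 0.033 at the low, medium and high dose (SD, n = 3). The HT29 ratio was 0.373 ± 0.0385 in the vehicle, 0.417 ± 0.063 at the low dose, 0.782 ± 0.085 at the medium dose and 0.694 ± 0.080 at the high dose. In SW1783 every dose lay above the whole range of the vehicle, and in HT29 the medium and high doses did. MT-ND2 per MT-ND4 lay above it at the low dose in HT29 as well, with 0.489 ± 0.057 against 0.373 ± 0.0045. An exact permutation test of 3 against 3 libraries cannot give a p below 0.1, so none was used on these ratios.

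**Figure D2:**
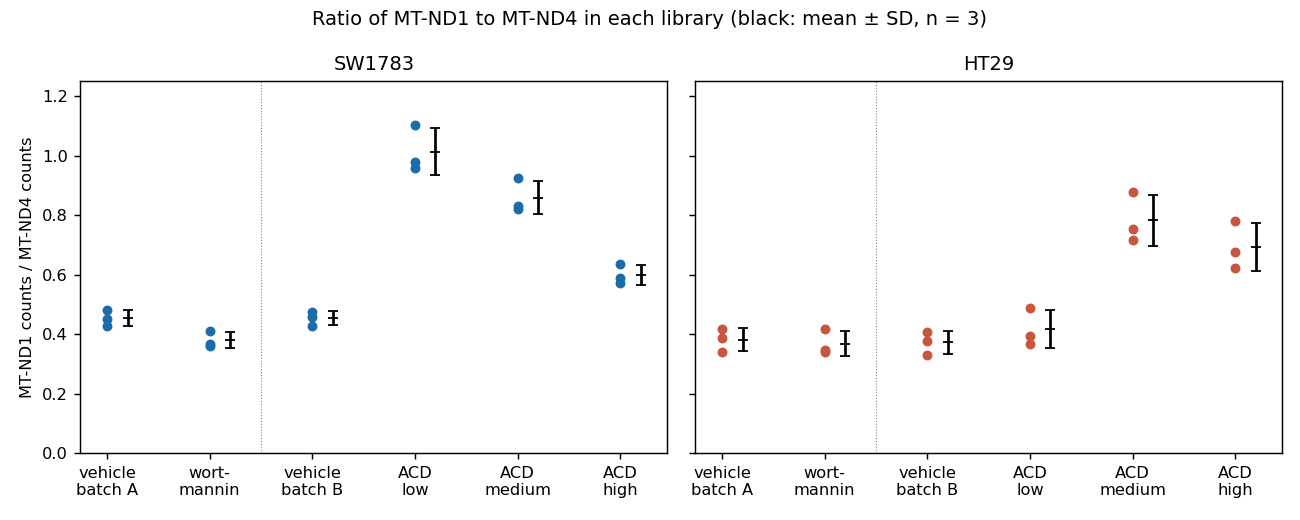
Ratio of MT-ND1 to MT-ND4 counts in each library by group, for SW1783 (left) and HT29 (right); dots are libraries, black marks give mean ± SD, n = 3, and the dotted line separates batch A from batch B. The ratio is at 1.01 at the low dose in SW1783 against 0.454 in the vehicle, and at 0.782 at the medium dose in HT29 against 0.373.

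MT-ND4L and MT-ND4 share an mRNA. MT-ND4L counts per MT-ND4 count were 0.137 ± 0.013 in the SW1783 vehicle and 0.130 ± 0.012, 0.136 ± 0.010 and 0.132 ± 0.0094 at the low, medium and high dose, within the spread. In HT29 they were 0.0924 ± 0.018 in the vehicle and 0.110 ± 0.031 at the high dose, with overlapping libraries. MT-ND1 per MT-ND2, from neighbouring genes, was at 0.942 ± 0.0475 in the SW1783 vehicle and at 0.980 ± 0.0227, 1.04 ± 0.0279 and 0.939 ± 0.0401 at the low, medium and high dose, and the medium dose alone did not overlap with the vehicle. MT-ND5 per MT-ND4 was at 0.310 ± 0.035 in the HT29 vehicle and at 0.663 ± 0.13 at the high dose, with no overlap. MT-ND6 per MT-ND5, the pair on opposite strands, was at 0.103 ± 0.0045 in the SW1783 vehicle and at 0.133 ± 0.0063, 0.144 ± 0.0041 and 0.143 ± 0.0026 at the low, medium and high dose. In HT29 this ratio was at 0.148 ± 0.0697 in the vehicle and between 0.104 and 0.135 at the doses, with overlapping libraries.

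The members were next compared with the mRNAs of the other respiratory complexes from the same genome, by scaling each library to the geometric mean of MT-CYB, MT-CO1, MT-CO2, MT-CO3, MT-ATP6 and MT-ATP8. On this relative scale MT-ND1 rose by 1.02 ± 0.11 and MT-ND2 by 0.96 ± 0.11 at the low dose in SW1783 and both were DEGs, against 1.42% of all tested genes in that direction. On this scale 65.7% of all tested genes passed at that dose. MT-ND3 (0.42 ± 0.07) and MT-ND6 (0.32 ± 0.07) rose as well, and MT-ND4 and MT-ND4L fell by 0.15 (SE 0.05) and 0.22 (SE 0.07), all under 1.5-fold. The call of MT-ND4 was lost without vehicle replicate 3 (adjusted p = 0.0757) and by edgeR with the same scaling (adjusted p = 0.0662). At the medium dose MT-ND1 (0.68 ± 0.11) was the DEG among the members, against 23.8% of all tested genes that rose, while MT-ND6 (0.58 ± 0.07) and MT-ND2 (0.53 ± 0.11) rose less than 1.5-fold and MT-ND4 and MT-ND4L fell by 0.24 (SE 0.05) and 0.25 (SE 0.07). These 5 members passed, against 53.1% of all tested genes. Without medium-dose replicate 3 or vehicle replicate 1 or 2, 2 members were DEGs. At the high dose MT-ND1, MT-ND2, MT-ND3 and MT-ND6 rose by 0.34 ± 0.11, 0.35 ± 0.11, 0.21 ± 0.07 and 0.29 ± 0.07, and MT-ND5 fell by 0.18 (SE 0.05), with 48.7% of all tested genes passing. None of the 7 was a DEG, against 23.4%. The reference mRNAs also moved against each other in SW1783. MT-CO2 passed at the high dose (-0.29) and MT-CO3 at the low dose (-0.20). At the medium dose MT-CYB (0.45), MT-CO2 (-0.26) and MT-CO3 (-0.22) passed, and the remaining references passed at no dose. Shifts under 1.5-fold on this scale were therefore not particular to the members. MT-ND3 did not pass without high-dose replicate 1 or vehicle replicate 1 or 2 (adjusted p = 0.18, 0.0653 and 0.103), nor MT-ND5 without high-dose replicate 3 or vehicle replicate 1 (adjusted p = 0.054 and 0.0507).

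In HT29 the same scale gave MT-ND1 and MT-ND2 as DEGs at the medium dose, with 0.97 ± 0.21 (adjusted p = 0.00296) and 0.99 ± 0.19 (adjusted p = 0.000211), against 0.328% of all tested genes that rose. Without medium-dose replicate 2 or vehicle replicate 2, 1 of them was a DEG. At the high dose MT-ND5 (0.65 ± 0.19), MT-ND6 (0.62 ± 0.25) and MT-ND2 (0.59 ± 0.19) rose over 1.5-fold relative to the other mRNAs, MT-ND1 (0.48 ± 0.21) rose less, and MT-ND4 fell by 0.42 (SE 0.17). At that dose 70.9% of all tested genes passed and 70.7% were DEGs that rose on this scale, on which the reference mRNAs, themselves lower, are set to no change. MT-ND6 and MT-ND4 did not pass without high-dose replicate 2 (adjusted p = 0.256 and 0.0945) or without vehicle replicate 2 or 3, and MT-ND1 did not pass without high-dose replicate 1 or 3 or vehicle replicate 1 or 2. Without vehicle replicate 1 or 2 a single member was a DEG. At the low dose in HT29 no member passed, against 0.103% of all tested genes.

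The log2 changes were set against the position of the genes. Over the 6 members on the strand of MT-RNR1, the 12S rRNA gene at the start of the transcripts, the Pearson r of the log2 change with distance from the MT-RNR1 start was -0.92, -0.87 and -0.89 at the low, medium and high dose in SW1783 and -0.89, -0.97 and -0.41 in HT29. Spearman rho was -0.77, -0.60 and -0.89 in SW1783 and -0.77, -0.77 and -0.09 in HT29, so no order by rank was seen at the high dose in HT29. The gene starts are unevenly spread, with MT-ND1 and MT-ND2 at 2659 and 3822 bases and MT-ND3 to MT-ND5 at 9411 to 11689 bases. An even gradient is therefore not shown by r. With wortmannin r had the opposite sign, at 0.83 in SW1783 and 0.20 in HT29. These are correlations across genes that share libraries and, in the case of MT-ND4L and MT-ND4, an mRNA, so they are given without a p, and the doses of a line share their vehicle. Over all 12 mRNAs of that strand r was weaker, at -0.67, -0.32 and -0.49 in SW1783 and at -0.43, -0.75 and -0.11 in HT29. MT-CO1 and MT-CO2, which lie between MT-ND2 and MT-ND3, were at -0.16 and -0.33 at the low dose in SW1783, both lower than the vehicle. MT-CYB, the farthest mRNA gene of that strand, was at 0.45 at the medium dose in SW1783 on the scale relative to the other mitochondrial mRNAs.

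**Figure D3:**
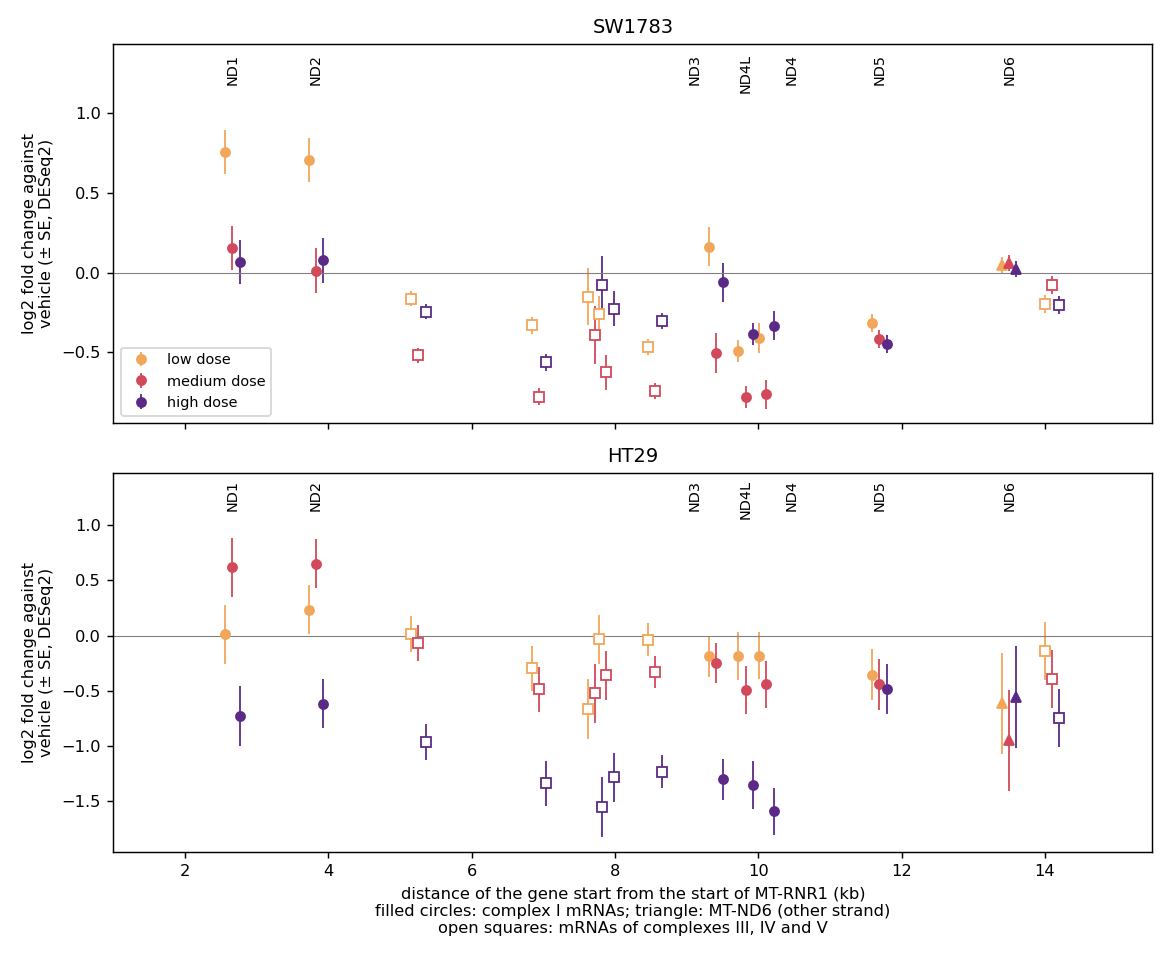
log2 fold change against vehicle (± SE, DESeq2) by distance of each gene start from the start of MT-RNR1 in kb, for SW1783 (top) and HT29 (bottom) at the 3 doses of ACD. Filled circles are the complex I mRNAs on the strand of MT-RNR1, the triangle is MT-ND6 and open squares are mRNAs of complexes III, IV and V; at the low dose in SW1783 MT-ND1 and MT-ND2 are at 0.75 and 0.70 against -0.41 for MT-ND4, whereas at the high dose in HT29 MT-ND5 (-0.48) lies above both.

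The mitochondrial rRNAs moved with these changes. MT-RNR1 rose by 2.64 ± 0.05, 4.47 ± 0.05 and 4.30 ± 0.05 on the log2 scale at the low, medium and high dose in SW1783, and MT-RNR2, the 16S rRNA, by 1.70 ± 0.05, 3.01 ± 0.05 and 2.55 ± 0.05. In HT29 MT-RNR1 rose by 1.32 ± 0.09 at the medium and by 4.57 ± 0.09 at the high dose, and was at -0.22 ± 0.09 without passing at the low dose. MT-RNR2 rose there by 0.77 ± 0.09 and 3.27 ± 0.09, and was at -0.12 ± 0.09 without passing at the low dose. Their share of all counts went from 0.932% ± 0.025 to 7.83% ± 0.20 at the medium dose in SW1783 and from 1.18% ± 0.040 to 12% ± 0.63 at the high dose in HT29. The share of the complex I mRNAs in the same libraries went from 1.51% to 1.11% ± 0.015 and from 2.52% to 1.11% ± 0.23. At the low dose in SW1783 it was 1.62% ± 0.25 and overlapped with the vehicle, with MT-ND1 and MT-ND2 higher and MT-ND4 lower. The part of the rRNA rise, or of the way rRNA was removed from the libraries, in the levels of the members was not tested. In a bulk library, fewer copies in every cell and fewer cells with many copies cannot be told apart.

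**Figure D4:**
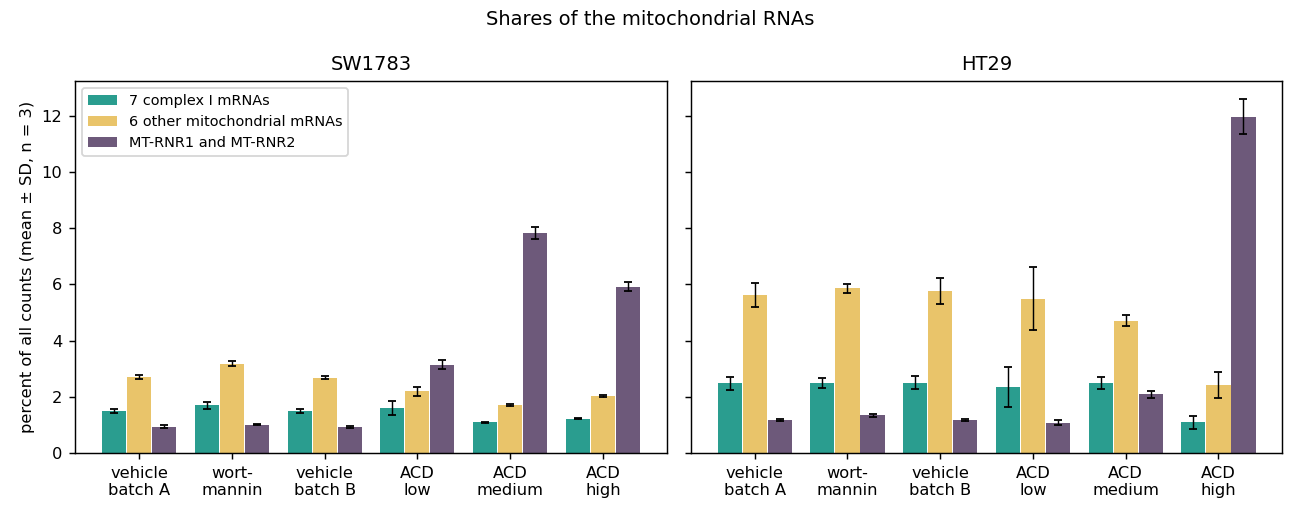
Percent of all counts taken by the 7 complex I mRNAs, the 6 other mitochondrial mRNAs and the rRNAs MT-RNR1 and MT-RNR2 in each group (mean ± SD, n = 3), for SW1783 (left) and HT29 (right). The rRNA share is 7.83% at the medium dose in SW1783 and 12% at the high dose in HT29, where the complex I mRNAs are both at 1.11%.

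With wortmannin in SW1783, MT-ND4, MT-ND5 and MT-ND4L passed the test, all higher, against 13.8% of all tested genes, and none was a DEG, against 2.72%. MT-ND5 was at 59759, 55408 and 54996 normalized counts in the vehicle of batch A and at 63507, 65981 and 61574 with wortmannin, without overlap. MT-ND5 rose by 0.17 ± 0.05 (adjusted p = 0.00248), MT-ND4 by 0.24 ± 0.08 (adjusted p = 0.0137) and MT-ND4L by 0.13 ± 0.05 (adjusted p = 0.0482). MT-ND4 lost the threshold without vehicle replicate 1 or 2 or wortmannin replicate 1 or 2, and MT-ND4L without any of the vehicle libraries or wortmannin replicate 2 or 3. MT-ND1 was at -0.02 ± 0.12 and MT-ND3 at 0.25 ± 0.12 without passing. By edgeR MT-ND3 passed (adjusted p = 0.00161). Without vehicle replicate 3 MT-ND3 passed (0.34, adjusted p = 0.00712), and without vehicle replicate 1 MT-ND6 did (0.17, adjusted p = 1.12e-06).

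In HT29, MT-ND5 was the member that passed with wortmannin, against 7.63% of all tested genes that rose, and none was a DEG, against 2.65%. Its vehicle libraries were at 65410, 66664 and 71661 normalized counts and its treated libraries at 78450, 81801 and 74719, all higher. MT-ND5 rose by 0.21 ± 0.06 (adjusted p = 0.00437), a call that was lost without vehicle replicate 2 or wortmannin replicate 1 or 2. MT-ND1 (-0.11 ± 0.19), MT-ND2 (-0.05 ± 0.09), MT-ND3 (-0.24 ± 0.10), MT-ND4 (-0.05 ± 0.09), MT-ND4L (-0.25 ± 0.11) and MT-ND6 (-0.29 ± 0.36) did not pass, although MT-ND3 did without vehicle replicate 2 (-0.36, adjusted p = 0.000521). No member passed in the wortmannin interaction between the lines, against 14.9% of all tested genes, and without HT29 vehicle replicate 2 of batch A a single member was a DEG. Relative to the other mitochondrial mRNAs, no member passed with wortmannin in SW1783 or HT29, against 49.7% and 3.67% of all tested genes. No member differed between the vehicles of batch B and batch A (DESeq2), where an adjusted p under 0.05 was reached by 0.00348% of tested genes in SW1783 and by 0% in HT29. By edgeR no member passed either, and 0 of 7 members had an unadjusted p under 0.05 with DESeq2 in SW1783 or HT29. Same-numbered vehicle libraries lay closer to each other than replicates, so these unpaired tests could hardly pass and do not show that the batches were alike. With the replicate number as a block, 3 members passed in HT29, none over 1.5-fold. The share of all genes passing under that block was not computed.

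The nuclear genes of complex I were read from a list of subunits. Of 37 nuclear subunits, none passed at the high dose in HT29, where 7.62% of all tested genes passed. Their median log2 change was 0.03, against 0.01 over all tested genes. At that dose 3 of 7 mitochondrial members were DEGs that fell, as were 5 of the 6 other mitochondrial mRNAs. In SW1783 at the high dose, 23 nuclear subunits passed lower and 1 higher, none of them over 1.5-fold (median -0.17, all tested genes -0.01), against 22.6% lower and 23.9% higher of all tested genes. At the low dose in SW1783, where MT-ND1 and MT-ND2 rose, none of the 37 passed, against 3.29% of all tested genes. With wortmannin, 27 nuclear subunits in HT29 and 13 in SW1783 passed, all lower, with medians of -0.39 and -0.11, against 11.1% and 20.1% of all tested genes that passed lower, whereas the mitochondrial members that passed were higher. Of 20 assembly factors, which build the complex from its modules, 5 passed higher and 2 lower at the high dose in SW1783, where 23.9% of all tested genes passed higher and 22.6% lower, and 1 passed higher in HT29, against 4% of all tested genes.

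Genes that make and process mitochondrial RNA were read for the same libraries. POLRMT, the mitochondrial RNA polymerase, rose by 0.74 ± 0.07 at the high dose in SW1783 (adjusted p = 3.22e-27), and was at 0.05 ± 0.09 in HT29. TFAM, which packages mitochondrial DNA and starts its transcription, fell by 0.29 (SE 0.05) in SW1783 at that dose. The transcription termination factor genes MTERF1 and MTERF2 fell by 0.69 (SE 0.11) and 0.70 (SE 0.15). Of 16 genes of transcription and replication, 6 passed higher and 6 lower in SW1783 at the high dose, and none in HT29, read against the same shares of all tested genes (23.9% and 22.6% in SW1783, 7.62% in HT29).

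Among 23 genes of processing, stability and decay, 3 passed higher and 8 lower at the high dose in SW1783, against 23.9% and 22.6% of all tested genes, and 2 higher in HT29, against 4%. SUPV3L1, the helicase of the mitochondrial RNA degradosome, rose by 1.08 ± 0.06, and FASTKD5, needed to process mRNA ends that no tRNA marks, fell by 1.06 (SE 0.11) in SW1783. LRPPRC, which with SLIRP stabilizes mitochondrial mRNAs, rose by 0.27 ± 0.03 in SW1783 and by 0.20 ± 0.06 in HT29 at the high dose, while SLIRP fell by 0.20 (SE 0.06) in SW1783 and was at 0.20 ± 0.25 in HT29. GRSF1, an RNA-binding protein of mitochondrial RNA granules, fell by 0.18 (SE 0.05) in SW1783 and was at 0.09 ± 0.10 in HT29. FASTK, linked to the stability of the MT-ND6 mRNA, had a log2 change of -0.08 ± 0.06 in SW1783 and of 0.02 ± 0.09 in HT29. At the low dose none passed of the 21 tested in SW1783 or the 23 tested in HT29, against 3.29% and 0.649% of all tested genes.

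The nuclear genes whose levels most resembled the mean of the 7 members were RNF145, ETNK1, SESN1, ATRX and DCP2. Likeness was the lower of the Pearson r of the 2 lines, each over 18 libraries, and lay between 0.73 and 0.68 for these genes among 9662 compared. Within the set, MT-ND4 and MT-ND3 followed the mean of the other members closely in HT29, with r of 0.94 and 0.89. In SW1783 MT-ND3 was at 0.86 and MT-ND4 at 0.64, while MT-ND1 and MT-ND6 were at -0.00 and -0.19. These values describe libraries of 6 groups per line and carry no p.

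Copies of the members in the nuclear genome, found here by gene symbol without comparing sequences, could take some of their reads. The table listed 209 such pseudogenes, and their counts were 3.79% of the sum for MT-ND2, nearly all at MTND2P28, and at most 0.0554% for any other member. Adding the copies to the members left all 56 changes against vehicle, 7 members in 8 comparisons, on the same side of the test.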

How the data were processed

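RNA of SW1783 and HT29 cells was sequenced in 36 libraries of 12 groups (n = 3). Per the labels and methods, the authors prepared directional mRNA libraries. Reads were trimmed (Trim Galore 0.6.5), aligned to GRCh38 (STAR 2.7.3a) and quantified per gene (RSEM 1.3.3), with versions from the submitters' processing notes. The removal of rRNA, the strand setting and the treatment of reads with several positions are not given in the sources used here, so sense and antisense reads at MT-ND5 and MT-ND6 cannot be told apart. The deposited table by the authors holds expected counts per gene, not normalized. They were rounded here, since 8.84% of all values and 34.5% of member values were not whole.

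DESeq2 1.42.0 (R 4.3.3; Wald test, two-sided, Benjamini-Hochberg over all genes of a comparison) was fitted per line on the 12 libraries of batch B and on the 6 of batch A. Passing meant an adjusted p under 0.05, and a DEG also exceeded 1.5-fold. Interactions used 24 libraries in batch B and 12 in batch A. Treatments of a batch and line share their vehicle. Normalized counts compare libraries within a batch and line; levels between genes are per kb. Alternatives used edgeR 4.0.16, other size factors, a filter of 10 counts in 3 libraries, a replicate block, the compared groups alone, added pseudogene counts and left-out libraries. Shares of all tested genes were computed for the main fits and those relative to other mitochondrial mRNAs, not for these alternatives. The fit function was tested on simulated data. Totals were 15941250 to 33866636 counts per library, so counting error was small for these abundant mRNAs and standard errors reflect replicate spread.

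Same-numbered vehicle libraries of batches A and B deviated together (r 0.232 to 0.771), so that comparison was also blocked; no treatment showed this in every pair. The source of that pairing is not stated. All 7 members were named, with rRNAs, other mitochondrial mRNAs, fixed regulators, the largest DEGs of each list at 100 or more normalized counts, and the 5 nuclear genes most like the members by r of log2(normalized count + 1). The members, lists and tests were chosen with earlier results of these data known. The ratios among members were chosen after their values were seen.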

Additional observations from a re-analysis of the deposited data

Results flagged for a closer look

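The change at the high dose of ACD differed between SW1783 and HT29 for MT-ND3, MT-ND4 and MT-ND4L. The interaction, SW1783 change minus HT29 change, was 1.20, 1.22 and 0.93 on the log2 scale, past the adjusted p of DESeq2 in each case. In HT29 these members fell by 1.30, 1.59 and 1.35, and in SW1783 the changes were -0.06 (not passed), -0.33 and -0.38. The difference was not particular to them, as 5 of the 6 other mitochondrial mRNAs were DEGs of the same interaction (median 0.81). The MT-RNR1 change in the same libraries was 4.57 in HT29 and 4.30 in SW1783, and that of MT-RNR2 was 3.27 and 2.55. Their interactions were -0.31 and -0.76 (DESeq2 adjusted p = 0.0109 and 6.31e-13). The part of the rRNAs in the difference was not tested. With 3 libraries in each group, single libraries were not screened for outlying values.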

How the results depend on the processing

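The counts below moved by more than 1.5 times or, further on, single values changed sign, and the cause was not tested. Without the fold threshold, the number of members was 3 at the high, 4 at the medium and 5 at the low dose in SW1783, 3 and 1 with wortmannin in SW1783 and HT29, 3 from medium to high and 5 from low to medium dose in SW1783, 7 between the vehicles of the lines, and, relative to the other mitochondrial mRNAs, 5, 5 and 6 at the high, medium and low dose in SW1783 and 5 at the high dose in HT29. With only the groups compared, HT29 gave 5 DEGs at the high and 2 at the medium dose. Total-count size factors moved the median of all genes to -0.12, -0.11 and -0.13 at the high and medium dose in SW1783 and the high dose in HT29, and gave 6 DEGs at the high dose in HT29 and 5 and 1 in the interaction at the high and medium dose. The groups' same-numbered libraries outside the vehicles share only a number. The replicate block gave 5 DEGs at the high and 1 at the medium dose in HT29, and 5 and 2 in the interaction at the high and medium dose. With the block MT-ND4 and MT-ND4L did not pass with wortmannin in SW1783 (adjusted p = 0.0893 and 0.0778), and MT-ND4L passed with wortmannin in HT29 (-0.25, adjusted p = 0.0055).

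Leaving out a library, the counts of DEGs ranged from 0 to 2 at the low dose in SW1783, 1 to 3 from low to medium dose in SW1783, 0 to 2 in HT29 for that step, 2 to 5 between the lines, 3 to 5, 0 to 2 and 0 to 1 in the interactions at the high and low dose and with wortmannin, and, relative to the other mitochondrial mRNAs, 1 to 3 and 1 to 2 at the high and medium dose in HT29 and 1 to 2 at the medium dose in SW1783. As a percent of all counts, the summed members were at 0.818 and 0.733 of the vehicle at the high and medium dose in SW1783, against 0.885 and 0.791 as normalized counts.

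Of 1230 recomputed single values, 1127 kept direction and side of the threshold and 34 changed sign, of which 0 passed the test before or after. With total-count size factors these were MT-ND1 (-0.047), MT-ND2 (-0.037) and MT-ND6 (-0.092) at the high dose, MT-ND2 (-0.10) and MT-ND6 (-0.051) at the medium dose and MT-ND1 with wortmannin (0.0090) in SW1783, MT-ND2 (0.0039) and MT-ND4 (0.0096) with wortmannin in HT29, and the high-dose interaction of MT-ND5 (0.078). That interaction was at 0.037 with edgeR and 0.051 with the replicate block, and MT-ND1 at the low dose in HT29 was at -0.053 with the block. With left-out libraries, HT29 ranged from -0.41 to 0.24 (MT-ND1) and -0.15 to 0.43 (MT-ND2) at the low dose and, with wortmannin, from -0.26 to 0.025 (MT-ND1), -0.14 to 0.019 (MT-ND2), -0.14 to 0.017 (MT-ND4) and -0.50 to 0.11 (MT-ND6). SW1783 ranged from -0.15 to 0.026 (MT-ND3) and -0.032 to 0.060 (MT-ND6) at the high dose, -0.027 to 0.048 (MT-ND2) at the medium dose, -0.011 to 0.087 (MT-ND6) at the low dose and -0.096 to 0.079 (MT-ND1) with wortmannin. The high-dose interaction of MT-ND5 ranged from -0.24 to 0.15. The low-count filter, TMM-derived size factors, edgeR and added pseudogene counts moved no count of DEGs against vehicle by over 1.5 times.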
